A study of Canis lupus familiaris with 4 samples.

Results

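The miR-23/27/24 twin clusters were described in small RNA libraries of EVs from 2 canine mammary adenocarcinoma cell lines. They were chosen by name in the deposited miRNA table, as cfa-mir-23a, cfa-mir-27a and cfa-mir-24-2 on dog chromosome 20 and cfa-mir-23b, cfa-mir-27b and cfa-mir-24-1 on chromosome 1. These are 6 of the 673 rows of the table. The rule goes by name and has no threshold on a measured value, but it was set with earlier results of these data known. EVs of CHMp, a line from a primary tumor, are called pTDEs, and EVs of CHMm, a line from a metastasis of the same dog, are called mTDEs. Both lines were grown in RPMI medium with fetal bovine serum and gentamicin, and both were moved to medium without serum or antibiotics before EVs were collected by ultrafiltration and ultracentrifugation. Each cell line had 2 libraries, which the study calls biological replicates without saying how they were grown apart, and p-values measure the spread between these libraries only. With 1 line of each kind, a difference between primary and metastatic tumors cannot be told apart from a difference between these particular lines.

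The clusters are a classic case of a duplicated miRNA locus. Each is transcribed as 1 primary transcript, from which a miR-23, a miR-27 and a miR-24 hairpin are cut, so that the miRNAs of a cluster start out equal in number and come to differ through processing, stability and, in EVs, sorting. The a and b forms of miR-23 and of miR-27 share their seed, the bases that pair with target mRNAs, and differ by little elsewhere, and both miR-24 genes give the same mature miRNA. The clusters are best known from blood vessels, blood cells and fat: miR-23 and miR-27 regulate vessel sprouting, miR-27 represses the fat cell regulator PPARG, miR-23 represses mitochondrial glutaminase and is itself repressed by MYC, and miR-24 represses cell cycle genes and the histone H2AX. In the RefSeq annotation of UU_Cfam_GSD_1.0, the chromosome 1 cluster lies within the spans of C1H9orf3, the gene of aminopeptidase O, and FANCC. The chromosome 20 cluster lies within no annotated gene, next to ZSWIM4, and its nearest other miRNA genes are MIR181C and MIR181D. Coordinates are not given because the table was made on another build, CanFam3.1.

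Levels are given as CPM, the reads of a row scaled to a library total of 1000000, recovered from the deposited values. The rows held 2331196 to 3458965 reads in the mTDE libraries and 5054508 to 6297117 in the pTDE libraries. The deposited values are not plain CPM but a log scale times a constant, and each was turned back to CPM with 1 constant per library. cfa-mir-24-1 and cfa-mir-24-2 had equal values in every library, cannot be told apart, and are reported once as miR-24. The 6 rows therefore hold 5 distinct miRNAs, and all were above 0 in all 4 libraries. The rows of the members carry precursor names and do not say which arm of the hairpin was counted. Reads that match both the a and the b form may have been counted on both rows, since the counting settings are not given in the sources used here.

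miR-24 was the most abundant of the 5 miRNAs in every library. It reached 9914 and 8311 CPM in pTDE replicates 1 and 2, and 14502 and 18722 CPM in mTDE replicates 1 and 2. The mTDE libraries were both higher than the pTDE libraries, without overlap. Among distinct rows of the table miR-24 ranked 14 and 18 in the pTDE replicates and 14 and 10 in the mTDE replicates, so that it belonged to the major miRNAs of these EVs.

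miR-27b followed closely, at 8753 and 5046 CPM in pTDE replicates 1 and 2 and at 11584 and 7444 CPM in mTDE replicates 1 and 2. Here the cell lines overlapped, because pTDE replicate 1 lay above mTDE replicate 2. miR-27a, the other form, was at 3107 and 1158 CPM in the pTDE replicates and at 4015 and 2262 CPM in the mTDE replicates, and overlapped in the same way. In both cell lines, replicate 1 held more of each miR-27 form than replicate 2. The pTDE replicates differed 2.68-fold in miR-27a, the widest replicate difference among the 5 miRNAs.

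The miR-23 forms were far less abundant than their cluster partners. miR-23a was at 302 and 204 CPM in pTDE replicates 1 and 2, and at 621 and 722 CPM in mTDE replicates 1 and 2. Every mTDE library was at least 2.05-fold above every pTDE library, the widest such gap among the members. miR-23b, the least abundant, was at 65.9 and 40.0 CPM in the pTDE replicates and at 97.2 and 192 CPM in the mTDE replicates, again without overlap. These levels rest on about 415 and 202 reads in pTDEs and 336 and 449 reads in mTDEs. The lowest, in pTDE replicate 2, has a 95% exact Poisson interval of 34.6 to 45.9 CPM, and such an interval covers counting error but not amplification, which copies molecules. Forward and reverse reads of a sample were pooled, so a fragment may have been counted by both its reads. In that case the intervals given here are too narrow. The mTDE replicates differed 1.98-fold in miR-23b, and their intervals, 87.0 to 108 and 175 to 211 CPM, did not overlap. After scaling by median-ratio size factors, which use the rows found in all libraries in place of the library total, these replicates were closer, at 109 and 138.

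**Figure D1:**
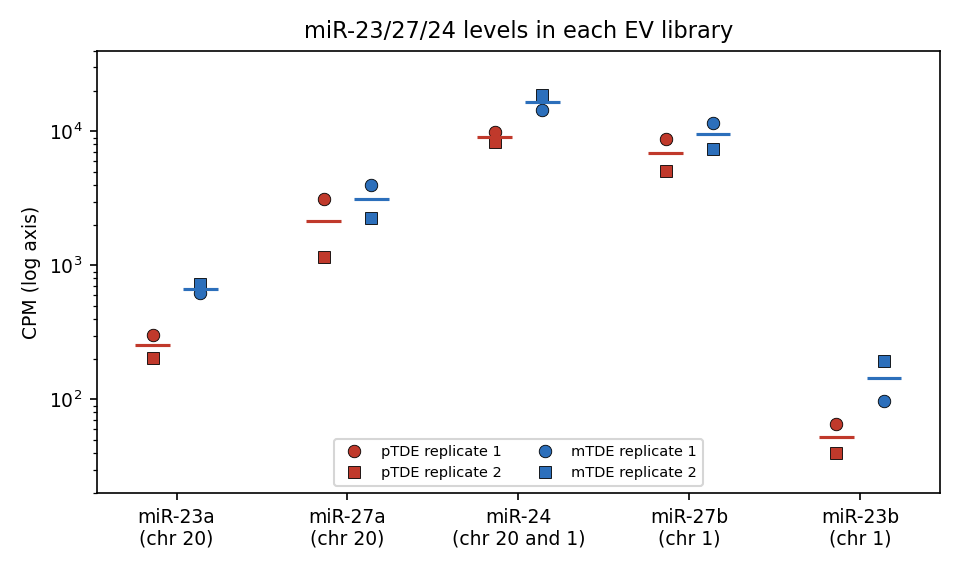
CPM (log axis) of each distinct member in each EV library, with the chromosome of its gene under the name. Red points are pTDEs and blue points mTDEs, circles are replicate 1 and squares replicate 2, and short lines are means of 2 libraries. miR-24 lies highest and miR-23b lowest in every library, and blue points lie above all red points for miR-23a, miR-24 and miR-23b but not for miR-27a and miR-27b.

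The order of levels, miR-24 over miR-27b, miR-27a, miR-23a and miR-23b, was the same in all 4 libraries. The neighbors miR-24 and miR-27b were closest in this order, with miR-24 higher 1.13-fold and 1.65-fold in pTDE replicates 1 and 2 and 1.25-fold and 2.52-fold in mTDE replicates 1 and 2. In pTDEs both ratios were below the 1.73-fold replicate difference of miR-27b, while in mTDEs only that of replicate 1 was below its 1.56-fold replicate difference on CPM. The other steps were wider than the replicate differences, with miR-27b 2.82-fold to 4.36-fold above miR-27a and miR-27a 3.14-fold to 10.3-fold above miR-23a. Counted once each, the 5 miRNAs made up 2.33% (replicate 1) and 1.59% (replicate 2) of the CPM of distinct rows in pTDEs, against 3.34% and 3.20% in mTDEs. miR-24 alone took 44.8% to 63.8% of that sum, while miR-23a took 1.36% to 2.46% and miR-23b 0.271% to 0.656%. Levels of different miRNAs in small RNA libraries also reflect how well each RNA is ligated and amplified, so these ratios are of reads, not of molecules. Only reads of 22 to 30 bases were kept, which can also count miRNAs of different length unequally. Lengths of the members were not used here, so the part of this limit in their order and ratios was not tested.

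The first comparison was between the clusters. A ratio of both forms within a library hardly depends on how the library was scaled. miR-23a exceeded miR-23b 4.59-fold and 5.10-fold in pTDE replicates 1 and 2, and 6.39-fold and 3.75-fold in mTDE replicates 1 and 2. For miR-27 the order was the opposite, with miR-27b above miR-27a 2.82-fold and 4.36-fold in the pTDE replicates and 2.88-fold and 3.29-fold in the mTDE replicates. The chromosome 20 cluster was therefore the larger by its miR-23 and the smaller by its miR-27, in 4 of 4 libraries each. On the log2(CPM + 1) scale, the mean ratio of the chromosome 20 form over the chromosome 1 form was 2.27 ± 0.32 for miR-23 and -1.72 ± 0.29 for miR-27 (SD, n = 4 libraries). The exact two-sided sign-flip permutation test over the 4 libraries gave p = 0.125 for each, the smallest value that this design allows.

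**Figure D2:**
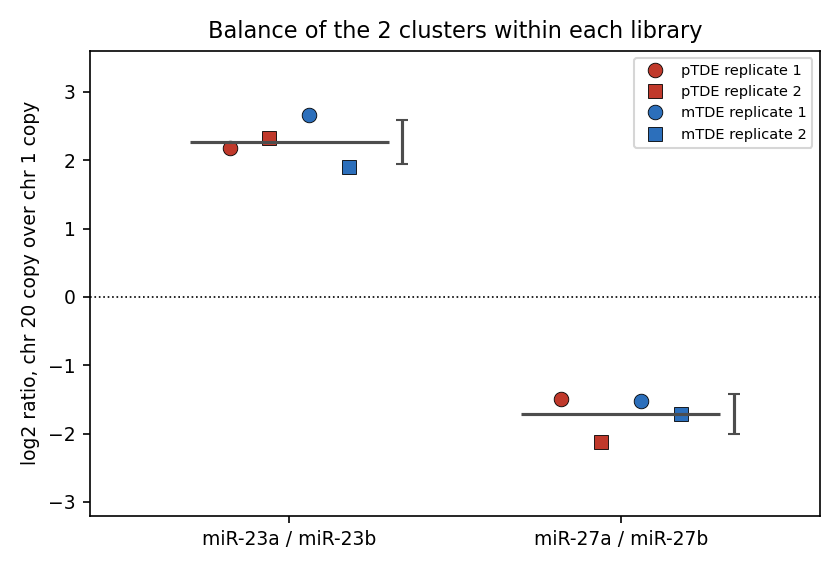
log2 ratio of the chromosome 20 form over the chromosome 1 form of miR-23 and of miR-27 in each library, on the log2(CPM + 1) scale. Points are libraries, long lines are means over 4 libraries and bars are SD. All points for miR-23 lie above 0, from 1.90 to 2.66, and all points for miR-27 lie below 0, from -2.12 to -1.49.

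The balance of the clusters was not shown to differ between the cell lines. The log2 ratio of miR-23a over miR-23b averaged 2.25 ± 0.10 in pTDEs and 2.28 ± 0.54 in mTDEs (SD, n = 2), a difference of -0.03 (exact two-sided permutation p = 1). For miR-27a over miR-27b the means were -1.81 ± 0.44 and -1.62 ± 0.13, a difference of -0.19 (exact two-sided permutation p = 1). With 2 libraries against 2 the smallest p this test can give is 0.333. Both differences changed sign when certain single libraries were left out, between -0.41 and 0.35 for miR-23 and between -0.50 and 0.13 for miR-27. For miR-23 the sign was positive without pTDE replicate 1 (0.039) and without mTDE replicate 1 (0.35), and for miR-27 without pTDE replicate 2 (0.13).

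Other lettered forms of 1 miRNA number gave a scale for these ratios. Among 60 pairs of tested rows that averaged 10 CPM or more, such as let-7e and let-7f, the SD of the log2 ratio over the 4 libraries had a median of 0.68. miR-27a and miR-27b ranked 8 and miR-23a and miR-23b ranked 10 from the most constant pair. A ratio on the same side of 0 in all libraries was common, with 54 of the 60 pairs. Pairs of 1 family share a form in this count, and it is given as a description. Pairs matched by name differ in how alike their forms are. Reads that match both forms may have been counted on both rows. That would make such a ratio vary less than a ratio of miRNAs that share no reads, and it was not tested.

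The balance within each cluster varied more. miR-24 exceeded miR-27a by 1.67 and 2.84 on the log2 scale in pTDE replicates 1 and 2, and by 1.85 and 3.05 in mTDE replicates 1 and 2. Replicate 2 thus had the larger excess in both cell lines, by 1.17 in pTDEs and 1.20 in mTDEs, while the difference of pTDEs minus mTDEs was -0.19. miR-24 over miR-27b behaved alike, at 0.18 and 0.72 in the pTDE replicates and at 0.32 and 1.33 in the mTDE replicates. Since reads of miR-24 can come from either gene, its part in 1 cluster cannot be told.

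miR-27 exceeded miR-23 by amounts that differed between the clusters. On the log2 scale miR-27a was above miR-23a by 3.36 and 2.50 in pTDE replicates 1 and 2 and by 2.69 and 1.65 in mTDE replicates 1 and 2. miR-27b was above miR-23b by 7.03 and 6.95 in the pTDE replicates and by 6.88 and 5.27 in the mTDE replicates. The miR-27 to miR-23 ratio was larger on chromosome 1 than on chromosome 20 in each library. This follows from the opposite order of the a and b forms given above and is no separate result. Between the cell lines the chromosome 1 ratio did not overlap, but pTDE replicate 2 and mTDE replicate 1 were within 0.1 of each other, and mTDE replicate 2 stood apart. The chromosome 20 ratio overlapped. The exact two-sided permutation test between the cell lines gave p = 0.333 for the chromosome 1 ratio, the smallest it can give, and p = 0.667 for the chromosome 20 ratio and for both miR-24 ratios.

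**Figure D3:**
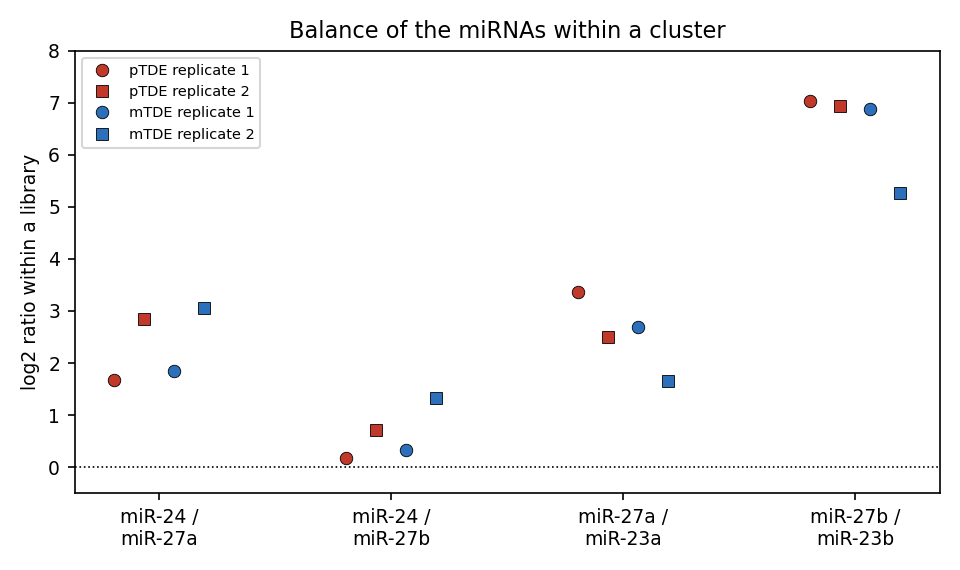
log2 ratios between members of a cluster in each library, on the log2(CPM + 1) scale, with colors for the cell lines and shapes for the replicates. Squares (replicate 2) lie above circles for both miR-24 ratios and below them for both miR-27 to miR-23 ratios within each cell line, and the miR-27b to miR-23b ratio lies highest.

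The second comparison was between the cell lines. All 5 distinct members had a lower mean in pTDEs than in mTDEs, and none had an adjusted p-value under 0.05. Differences were tested with limma on log2(CPM + 1) over 326 rows, those found in both replicates of a line, and p-values were adjusted by the Benjamini-Hochberg method, where a negative log2 fold change means a lower level in pTDEs. Of all rows tested, 1.84% were called in either direction, and 50.9% had a log2 fold change below 0. That background was unstable: the 6 rows called, all lower in pTDEs, became 0 without either mTDE library, and the 0 called higher became 28 with a pseudocount of 0.1 CPM and 37 without either pTDE library. By limma, 0 members were called at the adjusted threshold and 1, miR-23a, had an unadjusted p-value under 0.05. Of the rows tested, 9.51% were lower in pTDEs at that unadjusted threshold. limma voom on recovered reads called 0 members as well.

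miR-23a averaged 253 ± 69.6 CPM in pTDEs against 671 ± 71.2 CPM in mTDEs (SD, n = 2), 2.65-fold apart. Its log2 fold change was -1.43 (standard error 0.47, 95% interval -2.69 to -0.16, limma adjusted p = 0.199). miR-23b had a similar difference, 52.9 ± 18.3 against 145 ± 67.4 CPM, and its log2 fold change was -1.40 (standard error 0.76, 95% interval -3.43 to 0.63, limma adjusted p = 0.353). The wider interval of miR-23b goes with its wider replicate spread.

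miR-24 averaged 9113 ± 1134 CPM in pTDEs against 16612 ± 2984 CPM in mTDEs (SD, n = 2). Its log2 fold change of -0.86 had the smallest standard error of the members, 0.33, and a 95% interval from -1.75 to 0.03 (limma adjusted p = 0.259). In miR-24 the replicates of a line differed by 1.19-fold and 1.29-fold, less than the 1.82-fold between the means of the lines.

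The miR-27 forms differed least between the lines. miR-27a had 2132 ± 1378 CPM in pTDEs against 3139 ± 1240 CPM in mTDEs, and miR-27b had 6900 ± 2621 and 9514 ± 2928 CPM (SD, n = 2 for each). Their log2 fold changes were -0.67 (95% interval -2.39 to 1.06) and -0.48 (95% interval -1.71 to 0.74), both with a limma adjusted p of 0.597. These intervals still include a 2-fold difference, so that the lines were not shown to be alike. For miR-27a the direction rests on pTDE replicate 2, since without it the log2 fold change was 0.044. That of miR-27b was -0.085 without pTDE replicate 2 and -0.16 without mTDE replicate 1. It was -0.88 without pTDE replicate 1 and -0.80 without mTDE replicate 2.

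**Figure D4:**
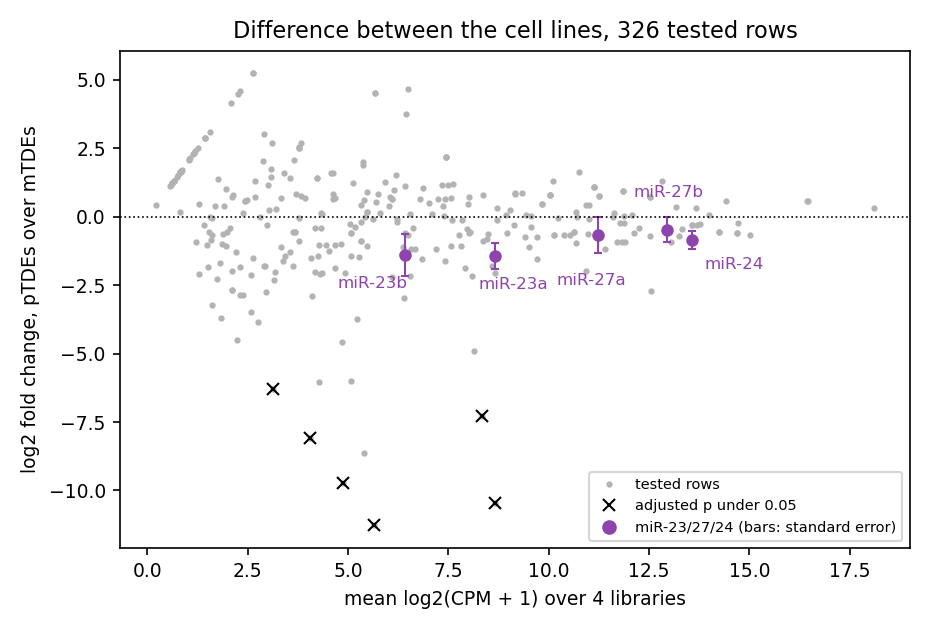
log2 fold change of pTDEs over mTDEs against the mean log2(CPM + 1) of the 326 tested rows. Purple points with standard error bars are the members, crosses are rows with an adjusted p-value under 0.05, and grey points are the other rows. The members lie below 0, from -1.43 to -0.48, and within the cloud of grey points.

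The cell lines did not overlap in 4 member rows, those of miR-23a, miR-23b and both copies of miR-24, all lower in pTDEs. Over all rows tested, 27.3% were lower in pTDEs without overlap. With median-ratio size factors, 23.9% of the rows did so, and miR-23a, miR-23b and miR-24 still did not overlap. That scaling shifted the median over all tested rows by 0.25 on the log2 scale, from -0.03 to 0.22. Under it the log2 fold changes were -1.19 for miR-23a, -1.16 for miR-23b, -0.62 for miR-24, -0.43 for miR-27a and -0.24 for miR-27b, each still below the shifted median.

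Epithelial miRNAs and blood miRNAs were examined beside these differences. Of 7 epithelial rows, the miR-200 family with miR-203 and miR-205, 6 fell in pTDEs by limma, and miR-203 did not pass (limma adjusted p = 0.0536), while voom called all 7. Of the 6, miR-200a, miR-200b, miR-141 and miR-429 were listed at 0 in both pTDE libraries and entered the test through mTDEs alone, so that their fold changes and p-values depend on the pseudocount and their calls are no support for a difference. Without either mTDE library, 0 tested rows were called lower in pTDEs, so these calls rest on both. By the mean over all libraries, the most abundant was miR-200c, at 15.1 and 6.33 CPM in pTDEs against 14605 and 16067 CPM in mTDEs. miR-205 was next, at 20.3 and 30.8 against 5041 and 3273 CPM. In pTDEs the highest of the 7 rows was miR-203, at 38.5 and 66.9 CPM. The 7 rows summed to 73.9 and 104 CPM in pTDE replicates 1 and 2, against 23718 and 26413 CPM in mTDEs. EVs of CHMp thus held little of these markers of epithelium.

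The clusters are also expressed in blood cells, and serum was present during growth. The 7 blood and serum rows summed to 419 and 992 CPM in pTDE replicates 1 and 2, and to 1070 and 3588 CPM in mTDE replicates 1 and 2. The mTDE sums were higher without overlap, but the sums of pTDE replicate 2 and mTDE replicate 1 were close, and mTDE replicate 2 stood apart. All 6 blood and serum rows tested had log2 fold changes below 0, against 50.9% of all rows tested, and ranged from -2.07 to -0.89. Among them 0 were called by limma or by voom, with 1 at an unadjusted p-value under 0.05. The erythroid miR-451 was at 123 and 465 CPM in the pTDE replicates and at 138 and 1423 CPM in the mTDE replicates, with overlap. miR-486, also erythroid, had a row for its 3p arm, at 110 and 349 CPM in pTDEs against 486 and 1397 CPM in mTDEs, without overlap. Over all rows tested, 27.3% were lower in pTDEs without overlap. miR-122, a liver miRNA carried in serum, was at 158 and 98.5 CPM in pTDEs against 364 and 570 CPM in mTDEs. The erythroid miR-144 was listed at 0 in every library. The part of the epithelial and of the blood and serum miRNAs in the differences of the clusters was not tested.

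miRNAs with related roles were counted for comparison. Of 14 rows linked to angiogenesis, 10 had log2 fold changes above 0 and 4 below 0, with a median of 0.65, against -0.03 for all rows tested and -0.86 for the members. The copies of miR-16 and of miR-218 are in this count as rows of their own, and with the copies of a miRNA averaged and counted once, a choice made after seeing the data, 8 of 12 miRNAs were above 0 and 4 below, with a median of 0.38. None of the 14 was called by limma, 0 had an unadjusted p-value under 0.05, and voom called 0. By the mean over all libraries, the most abundant was miR-222, a regulator of endothelial growth. It averaged 25076 ± 2856 CPM in pTDEs against 31346 ± 16168 CPM in mTDEs (SD, n = 2). The second by the mean over all libraries, miR-92a-1, an inhibitor of vessel sprouting, had 21846 ± 5585 and 32249 ± 2052 CPM. In mTDEs its mean was above that of miR-222. miR-221, of the same family as miR-222, had 8762 ± 996 and 12897 ± 7017 CPM, and miR-378 had 3752 ± 1352 and 9367 ± 10729 CPM. These 4 had log2 fold changes from -0.60 to -0.22, the 4 of the list that lay below 0. miR-126, the defining endothelial miRNA, was at 3.49 and 30.8 CPM in the pTDE replicates and at 0 and 27.5 CPM in the mTDE replicates. The defining endothelial miRNA was thus at 0 in 1 library and low in the others.

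Of 9 rows linked to TGF-β signaling and epithelial-mesenchymal transition, 3 had log2 fold changes above 0 and 6 below 0, with a median of -0.67. With the copies of miR-181b counted once, 3 were above and 5 below 0, with a median of -0.49. 0 were called by limma or by voom, and 3 had an unadjusted p-value under 0.05, as did 64 of the 326 rows tested. miR-155, an immune regulator that TGF-β induces in epithelium, was at 9027 and 14316 CPM in the pTDE replicates and at 3708 and 5803 CPM in the mTDE replicates, higher in pTDEs without overlap, opposite in direction to the clusters (log2 fold change 1.29, limma adjusted p = 0.202). Of the rows tested, 26.1% were higher in pTDEs without overlap. miR-30a, which represses mesenchymal genes, was also higher in pTDEs without overlap, at 2293 and 3990 CPM against 744 and 1274 CPM in mTDEs (log2 fold change 1.63, limma adjusted p = 0.170). The third with an unadjusted p-value under 0.05, miR-34a, a target of p53, lay in the direction of the clusters, at 7.94 and 10.7 CPM in pTDEs against 90.6 and 197 CPM in mTDEs (log2 fold change -3.72, limma adjusted p = 0.101). The rows of the list with the highest means over all libraries, miR-21 and miR-10b, overlapped between the lines. miR-21, the top row of every library, averaged 321862 ± 79786 CPM in pTDEs against 252583 ± 39313 CPM in mTDEs, and miR-10b averaged 14548 ± 11527 against 15104 ± 3570 CPM (SD, n = 2).

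miR-128, whose seed overlaps that of miR-27, was at 1118 and 1545 CPM in the pTDE replicates and at 2276 and 1663 CPM in the mTDE replicates. Its log2 fold change was -0.57 (limma adjusted p = 0.463), between those of miR-27a and miR-27b. The miRNAs next to the chromosome 20 cluster, miR-181c and miR-181d, were called in neither direction. miR-181d was at 390 and 404 CPM in the pTDE replicates and at 421 and 448 CPM in the mTDE replicates, a log2 fold change of -0.13 (95% interval -1.27 to 1.01). miR-181c was at 103 and 69.1 CPM in pTDEs and at 56.7 and 225 CPM in mTDEs, with overlap.

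The miRNAs whose pattern over the 4 libraries was most like that of the clusters were sought among 229 distinct rows averaging 10 CPM or more. The measure was the root mean square difference between centered log2(CPM + 1) profiles, against the mean profile of the 5 members. The nearest other rows were cfa_novel_2 at 0.14, cfa-mir-181a-1 with its identical copy at 0.16, cfa-mir-330 at 0.21, and cfa-mir-152 and cfa-mir-423a at 0.22 each. cfa-mir-181a-1, for example, was at 1075 and 725 CPM in the pTDE replicates and at 1391 and 1439 CPM in the mTDE replicates. The members themselves lay at 0.22 for miR-24, 0.25 for miR-23a, 0.34 for miR-27b, 0.40 for miR-23b and 0.41 for miR-27a. All 5 rows were thus nearer to the mean profile than any member was, though cfa-mir-423a (0.2201) and miR-24 (0.2206) were nearly tied.

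On CPM, the replicate difference of the members was set beside that of other miRNAs. Among 249 tested rows averaging 10 CPM or more, replicates differed on the log2 scale by a median of 0.64 in pTDEs and of 1.01 in mTDEs. In pTDEs the members ranged from 0.25 for miR-24 to 1.42 for miR-27a, and in mTDEs from 0.22 for miR-23a to 0.98 for miR-23b. The mTDE values depend on the scaling: with median-ratio size factors the mTDE replicates lay farther apart in miR-27a (4501 and 1620) and miR-27b (12984 and 5331) and closer together in miR-23b.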

How the data were processed

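The authors trimmed adapters with cutadapt, cut 4 bases from the read start, kept reads of 22 to 30 bases, pooled forward and reverse reads per sample, and obtained values for known and predicted miRNAs from miRDeep2, with CanFam3.1 as the genome. The length limit is close to the length of many miRNAs, so short forms can be understated. The deposited values per library are treated as a score. The paper says that CPM were used for further analysis, but the deposited values follow log2(CPM + 1) times a constant s of the library, and CPM were recovered as 2 to the power of value/s, minus 1, with the library total set to 1000000. The deposited table also holds the authors' edgeR comparison (log2 fold change and log2 CPM, a likelihood ratio score, p-values), which was not used. The worth of 1 read was the step between low CPM values. In every library 100% of the CPM values of at most 20 steps were multiples of it, with a tolerance of 0.1 step. The step was chosen to make low values such multiples, so this share is no independent check of the read counts. Reads of abundant rows are approximate, because the deposited score was rounded.

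limma 3.58.1 in R 4.3.3 (eBayes with trend, pseudocount of 1 CPM, prior degrees of freedom 2.4) was run on all 326 rows above 0 in both libraries of a line, since the unit is a score. Python 3.11.15, numpy 2.4.6, pandas 2.3.3, scipy 1.17.1 and matplotlib 3.10.9 did the rest. The conversion and the fit were tested on simulated data. Alternatives were other pseudocounts (0.1 and 5 CPM), filters, scalings and variance models, voom, a replicate block and each library left out. The members and lists were chosen with earlier results of these data known. Named are the members, the 5 nearest profiles and up to 4 of the most abundant rows of each list, fewer for the marker lists; 1 listed name, miR-296, matched no row. miR-126 was the only member of an endothelial list. Other rows named (miR-34a, miR-144, miR-200a, miR-200b and miR-141) were picked after their values were seen. miR-181c and miR-181d were in no planned list and were added as neighbors of the chromosome 20 cluster. Lettered pairs were matched by name, because mature sequences were not used here.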

Additional observations from a re-analysis of the deposited data

How the results depend on the processing

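None of the members had an adjusted p-value under 0.05 in the 11 other fits or in the 4 fits without 1 library, in which the lone library of a line is assumed to vary like the others. Over the 11 fits the lowest limma adjusted p-value was 0.151, for miR-23a with a pseudocount of 0.1 CPM. The log2 fold changes of miR-23a (-1.46 to -0.12) and miR-23b (-1.43 to -0.20) were below 0 in every fit. With the deposited values taken as CPM, miR-27a (0.029), miR-27b (0.063) and miR-24 (0.026) turned above 0, on a scale that is logarithmic with another constant in each library. Without 1 library, miR-27a ranged from -1.38 to 0.044, miR-27b from -0.88 to -0.085, miR-24 from -1.04 to -0.68, miR-23a from -1.71 to -1.14 and miR-23b from -1.89 to -0.91.

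On the deposited scale the log2 ratios also shrank: miR-23a over miR-23b was 0.44, miR-27a over miR-27b -0.21, miR-24 over miR-27a 0.28, miR-24 over miR-27b 0.069, miR-27a over miR-23a 0.37 and miR-27b over miR-23b 1.02, and the cell line difference in miR-23a over miR-23b was 0.076. Without 1 library that difference ranged from -0.41 to 0.35, and that in miR-27a over miR-27b from -0.50 to 0.13.

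The rows called higher in pTDEs, 0 of 326 (33 at an unadjusted p-value under 0.05), became 5 with voom, 4 without a trend, 4 with known miRNAs only, 5 with median-ratio size factors, 28 with a pseudocount of 0.1 CPM and 39 with deposited values as CPM. They ranged from 0 to 37 without 1 library, with 37 without either pTDE library. The 6 called lower became 11 with a pseudocount of 0.1 CPM, 11 with deposited values as CPM and 11 with voom, and ranged from 0 to 4 without 1 library, with 0 without either mTDE library. The cause was not tested.

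The replicate numbers are not said to mark a shared batch. Deviations of same-numbered libraries correlated at r = 0.15 over 249 rows. With the replicate block, miR-27a had a limma adjusted p of 0.433 and 0 members were called, and 7 rows were called lower and 0 higher in pTDEs.

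Depth bears most on miR-23b, at about 202 to 449 reads. For all members the spread between 2 libraries per line exceeds counting error.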
